A study of Arabidopsis thaliana with 6 samples.

Results

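Of the 1181 regions at which CG methylation differed between the endosperm of the 2 reciprocal *nrpd1* heterozygotes, 658 overlapped no region that separated either heterozygote from wild type (WT) in the CG context. They are called heterozygote-only CG regions here and are 658 of the 2488 CG regions in all 3 comparisons of the series. The regions were chosen by their listed positions and therefore by measured CG differences: a region had to differ between the heterozygotes by at least 30 percentage points, and had to share not 1 bp with a CG region against WT. Their number, direction, size of difference and length are given as a description of the lists, and nothing is tested with them. The other 523 CG regions between the heterozygotes overlapped at least 1 CG region against WT and serve for comparison.

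DNA methylation had been measured by bisulfite sequencing, which converts unmethylated cytosines, in hand-dissected *Arabidopsis thaliana* endosperm 7 days after pollination, with 2 replicates for each of 3 genotypes. For WT, a L*er* mother was pollinated by a Col-0 father. For mat *nrpd1+/-* the L*er* mother was homozygous for an *nrpd1* mutation and the Col-0 father was not, and for pat *nrpd1+/-* the Col-0 father was homozygous for one and the mother was not. All 3 are thus L*er* by Col-0 F1 endosperm. The mutation was in Col-0 and had been introgressed into L*er*, and by the paper some Col-0 segments are left in the mutant L*er* plants. The mutant allele came from the L*er* parent in one heterozygote and from the Col-0 parent in the other. The effects of parent, of accession and of such segments cannot be told apart. The authors pooled the replicates of a genotype before they compared genotypes. Each region therefore has 1 value, the difference in percent CG methylation as mat *nrpd1+/-* minus pat *nrpd1+/-*, with no methylation level per genotype, no value per replicate, no error and no read depth. No difference could be set against the spread between replicates. Intervals on shares are exact 95% Clopper-Pearson intervals and cover only the counting of regions, which are not replicates of a genotype.

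In plants, cytosines are methylated in the contexts CG, CHG and CHH, where H is A, C or T. CG methylation is copied at each DNA replication by the maintenance methyltransferase MET1. It is found over transposons and repeats together with non-CG methylation, and alone within the transcribed part of many long, constitutively expressed genes, where it is known as gene body methylation and is usually low near the transcription start. CHH methylation has to be set anew, in part through RNA-directed DNA methylation, in which RNA polymerase IV makes the precursors of 24-nt small RNAs and *NRPD1* encodes its largest subunit. In the central cell, the female precursor of the endosperm, the DNA glycosylase DME removes methylation, so that maternal and paternal genomes of the endosperm differ in CG methylation.

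The sequences of 2 of the regions with the largest gains and of the 3 with the largest losses in mat *nrpd1+/-* relative to pat *nrpd1+/-*, and of the one with the largest CHH difference, show what was measured. Each is the plus strand of the Col-0 reference (RefSeq, build TAIR10.1), 300 bp from the middle of the region or the whole region where it was that long, with every CG in capitals, and the values stand with the regions further on. The stretches hold 7, 9, 3, 5, 7 and 4 CG in the order printed.
gain near AT5G39770, chr5:15918151-15918450: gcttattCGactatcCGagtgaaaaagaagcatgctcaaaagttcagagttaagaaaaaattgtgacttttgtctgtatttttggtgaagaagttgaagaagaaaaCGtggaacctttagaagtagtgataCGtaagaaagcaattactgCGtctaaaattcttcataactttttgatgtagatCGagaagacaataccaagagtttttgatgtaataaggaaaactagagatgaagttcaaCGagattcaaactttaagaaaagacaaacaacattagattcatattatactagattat
gain near AT1G31220, chr1:11155201-11155500: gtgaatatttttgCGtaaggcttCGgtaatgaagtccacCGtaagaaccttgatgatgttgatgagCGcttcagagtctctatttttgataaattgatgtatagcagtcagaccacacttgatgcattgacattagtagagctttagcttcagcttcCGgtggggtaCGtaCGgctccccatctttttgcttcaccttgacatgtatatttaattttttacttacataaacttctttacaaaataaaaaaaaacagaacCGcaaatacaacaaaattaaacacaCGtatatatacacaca
loss in AT5G50340, chr5:20492501-20492800: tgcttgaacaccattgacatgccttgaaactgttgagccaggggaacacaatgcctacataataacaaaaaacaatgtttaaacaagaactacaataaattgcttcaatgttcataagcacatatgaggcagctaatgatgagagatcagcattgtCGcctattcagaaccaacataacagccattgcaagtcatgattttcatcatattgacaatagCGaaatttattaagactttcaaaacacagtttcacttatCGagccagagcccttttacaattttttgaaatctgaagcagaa
loss in AT5G35250, chr5:13501601-13501900: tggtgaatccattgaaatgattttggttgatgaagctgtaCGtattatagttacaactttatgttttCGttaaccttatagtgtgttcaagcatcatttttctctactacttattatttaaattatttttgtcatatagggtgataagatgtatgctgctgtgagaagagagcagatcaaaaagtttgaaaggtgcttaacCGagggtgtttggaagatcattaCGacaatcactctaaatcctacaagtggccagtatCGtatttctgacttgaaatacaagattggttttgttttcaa
loss in DAR4, chr5:5921501-5921800: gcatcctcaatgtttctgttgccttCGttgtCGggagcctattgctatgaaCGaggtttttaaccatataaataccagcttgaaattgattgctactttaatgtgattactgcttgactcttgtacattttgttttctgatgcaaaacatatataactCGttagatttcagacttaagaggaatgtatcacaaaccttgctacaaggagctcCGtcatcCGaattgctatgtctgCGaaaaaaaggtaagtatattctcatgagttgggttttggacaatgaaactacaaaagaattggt
CG and CHH gain near AT4G15730, chr4:8959501-8959800: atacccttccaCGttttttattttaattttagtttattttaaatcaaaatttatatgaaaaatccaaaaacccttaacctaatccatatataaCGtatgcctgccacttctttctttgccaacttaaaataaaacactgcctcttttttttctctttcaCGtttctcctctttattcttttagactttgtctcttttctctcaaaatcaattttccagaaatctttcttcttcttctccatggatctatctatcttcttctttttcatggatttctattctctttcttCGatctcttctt

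Methylation was higher in mat *nrpd1+/-* at 378 heterozygote-only CG regions and lower at 280, so that 42.6% were lower (interval 38.7% to 46.4%). In the other 523 regions 44.0% were lower (interval 39.7% to 48.4%). CG regions between the heterozygotes were overlapped by 0.744% of the 888923 windows of 300 bp in the tested sequence, that is, the sequence that passed the authors' filters in both heterozygotes. Differences of the heterozygote-only regions lay close to the threshold. Their median absolute difference was 34.9 points (quartiles 32.1 and 40.8) against 38.1 points (33.4 and 45.5) in the other regions, and 333 of the 658 (50.6%) differed by less than 35 points against 34.4% of the others. The median was -33.8 points where mat *nrpd1+/-* was lower and 35.8 points where it was higher. Among the 183 heterozygote-only regions that differed by at least 40 points, the share that was lower in mat *nrpd1+/-* was 33.3%.

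**Figure D1:**
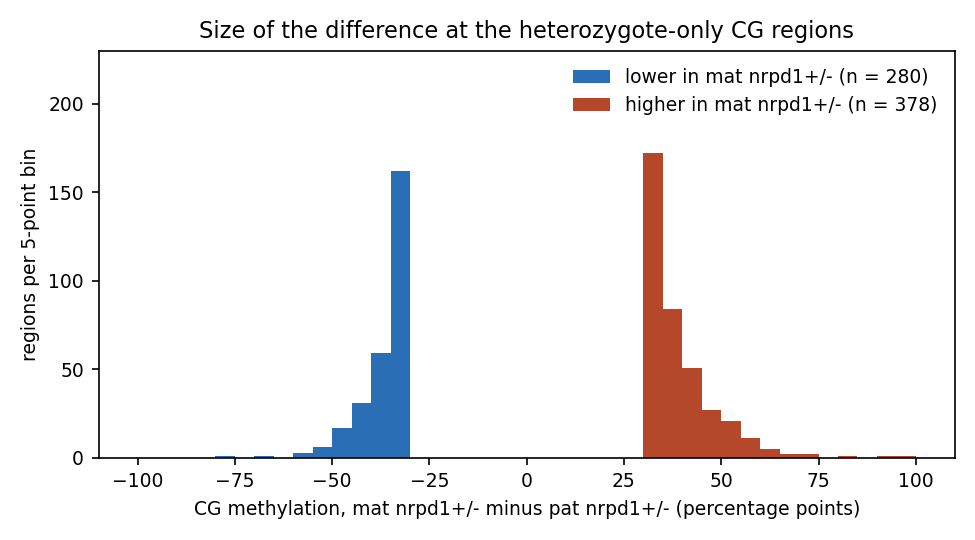
Number of heterozygote-only CG regions (vertical axis) by the difference in CG methylation, mat *nrpd1+/-* minus pat *nrpd1+/-*, in percentage points (horizontal axis, 5-point bins). The empty middle is the 30-point threshold, and the right-hand tail (378 regions, up to 96.97 points) is longer than the left-hand one (280 regions, down to -75.5 points).

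The regions were short. A single 300-bp window made up 465 of them (70.7%, interval 67.03% to 74.12%), against 51.6% of the other regions, and the longest spanned 700 bp. The share was 72.2% in the CG regions of mat *nrpd1+/-* against WT and 59.5% in those of pat *nrpd1+/-* against WT. The rule bears on length, since a longer region has more sequence in which to meet a region against WT. Together they covered 224.9 kb. The median region held 5 CG dinucleotides, against 6 in the longer other regions. Per 300 bp the median was 5 in both, and it was 6 in all tested windows. The median absolute difference was 34.7 points in regions with 5 or fewer CG, 34.5 points with 6 to 10 and 36.004 points with 11 or more, and differences of at least 50 points made up 5.85%, 10.6% and 12.2% of these regions. In 22 regions the Col-0 reference had fewer than 3 cytosines in CG context on both strands together, although the stated minimum is 3 shared cytosines per window. The share, 3.34%, was below those of the other regions (4.40%) and of all tested windows (5.33%).

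Absence from the WT lists could mean that the sequence was not compared with WT, so the filters of the WT libraries were examined at each region. Of the 658 regions, 651 (98.9%) lay wholly in sequence kept for each of the 3 genotypes. Among the rest, 4 lay at least in part outside the WT list of regions with a balanced share of maternal reads, 2 overlapped a CG region that differed between the WT replicates, and 1 overlapped such a region of pat *nrpd1+/-*. Whether a window had enough reads in WT is not in the lists. Differences below 30 points from WT on either side can add up to less than 60 points only. At 644 regions the heterozygotes differed by less than 60 points, and a WT level within 30 points of both, measured at the same cytosines, then had a median span of 25.4 points to lie in. At the other 14 regions, 12 of them higher in mat *nrpd1+/-*, the difference was 60 points or more although all 14 lay in sequence kept for WT too. There, WT cannot have been within 30 points of both heterozygotes at the same cytosines, and the part of read number or of different cytosines was not tested.

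In position, few of the regions lay near a CG region against WT. The gap does not measure how near a difference from WT came to 30 points, and gaps of other tested sequence were not computed. The median gap to the nearest CG region against WT was 20.95 kb (quartiles 8.4 and 51.2 kb), and 37 regions (5.62%) had one within 1 kb. The 3 regions that touched a region against WT without overlap differed by 33.9, -32.0 and -31.3 points. On the other side of the rule, the 3 regions with the smallest overlap, 100 bp, had absolute differences of 39.4 to 55.7 points. At the 30-point threshold itself, the smallest differences were 30.003, 30.023 and 30.024 points.

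Of the 658 regions, 329 overlapped a protein-coding gene (50%, interval 46.1% to 53.9%). The share was 57.0% (interval 52.6% to 61.3%) in the other 523 regions and 59.7% in all tested windows. Outside them, 91 (13.8% of all 658) overlapped an annotated pseudogene, a class that takes in many transposon remnants, against 10.3% of the other regions and 9.71% of the windows. Another 16 overlapped a non-coding gene, 89 (13.5%) lay within 1 kb of a protein-coding gene, and 133 (20.2%, interval 17.2% to 23.5%) were intergenic, against 15.7% of the other regions and 13.5% of the windows. The CG regions of mat *nrpd1+/-* against WT had 57% in protein-coding genes, 13.2% in pseudogenes and 18.2% in intergenic sequence. Those of pat *nrpd1+/-* against WT had 50.4%, 10.7% and 18.1%. Transposable elements as such are not annotated in the reference used here.

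The split between losses and gains was not alike in all annotation classes. Within protein-coding genes, losses and gains were nearly equal in number, with 167 regions lower and 162 higher in mat *nrpd1+/-* (50.8% lower, interval 45.2% to 56.3%). Outside them, 113 were lower and 216 higher (34.3% lower, interval 29.2% to 39.8%). In pseudogenes 24 were lower and 67 higher, and in intergenic sequence 46 and 87. The other 523 regions had a like split, with 51.7% lower in genes and 33.8% outside. Genic differences were also smaller, with a median of 33.6 points against 36.2 points in pseudogenes and 37.4 points in intergenic sequence.

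**Figure D2:**
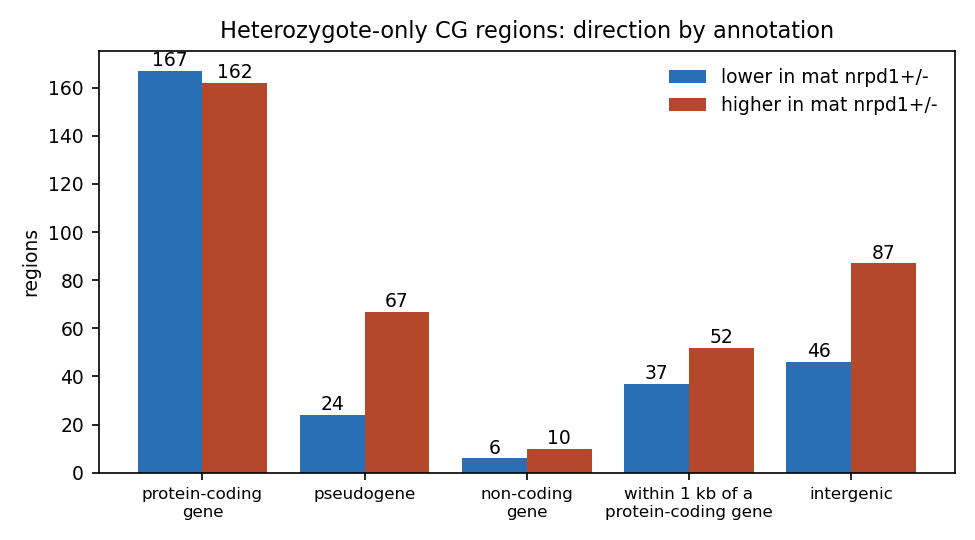
Number of heterozygote-only CG regions (vertical axis) that were lower (blue) or higher (red) in mat *nrpd1+/-* than in pat *nrpd1+/-*, by annotation class (horizontal axis), each region counted in the first class from the left that it overlaps. Bars are of near equal height in protein-coding genes (167 and 162), and the red bar is the taller one in pseudogenes (24 and 67) and intergenic sequence (46 and 87).

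Within genes the regions lay in the body and rarely at the start. Coding sequence was overlapped by 289 of the 329 genic regions (87.8%, interval 83.8% to 91.2%), an exon outside the coding sequence by 19 and introns alone by 21. The share with coding sequence was near that of the other regions in genes (86.2%) and above that of the tested windows in genes (80.6%). An exon, but no coding sequence, was overlapped by 5.78% of the genic heterozygote-only regions, 8.05% of the other genic regions and 15.5% of the windows in genes. Of all 658 regions, 17 (2.58%, interval 1.51% to 4.10%) overlapped the annotated start of a protein-coding gene, against 3.63% of the other regions and 6.81% of the tested windows. Along the gene, 33 of 344 pairs of region and gene (9.59%) had the centre of the region in the first 20% of the gene length and 80 (23.3%) in the last 20%, whereas 23.5% and 23.3% of the windows in genes fell there. The other regions were like them at the 5′ end, with 8.31% in the first 20%. The genes overlapped were long, with a median of 3384 bp over these pairs against 2816 bp over the pairs of windows and genes. For the other regions the median was 3238 bp.

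**Figure D3:**
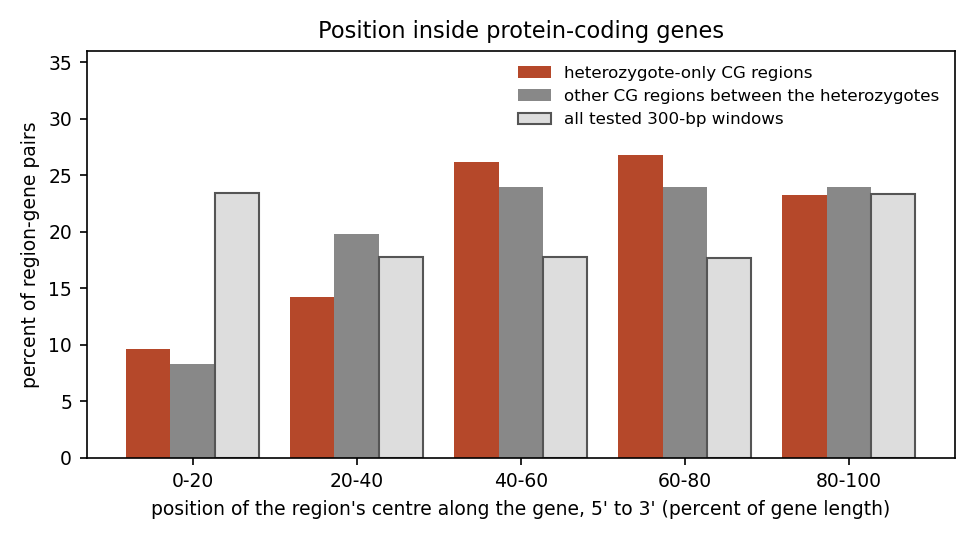
Percent of region-gene pairs (vertical axis) by the position of the centre of the region along the gene from 5′ to 3′ in steps of 20% of the gene length (horizontal axis). The first 20% holds 9.59% of the heterozygote-only pairs (red) and 8.31% of the other pairs (dark grey) against 23.5% of the tested windows (light bars).

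On the chromosomes, heterozygote-only regions were most dense around the gene-poor centres. The centre of each chromosome was taken as its 1-Mb bin with the least protein-coding sequence, and sequence within 2.5 Mb of the middle of that bin is called pericentromeric. There, 236 regions lay in 18.8 Mb of tested sequence (12.5 per Mb), and 422 lay in the 70.3 Mb of the arms (6.01 per Mb). The other regions numbered 7.02 per Mb in pericentromeres and 5.56 per Mb in the arms, so that the share of regions in pericentromeres was 35.9% among the heterozygote-only and 25.2% among the other regions. No test of this difference was made, because regions lie in clusters and the libraries were pooled. By chromosome, the density ranged from 6.31 per Mb on chromosome 3 to 8.10 per Mb on chromosome 5, with 7.39 per Mb over all 5. Tested sequence did not cover all arms. It was 14.9 Mb of the 30427671 bp of chromosome 1, with almost none from 18 to 29 Mb. On chromosome 2 it was 13.6 Mb of 19698289 bp, with none from 16 Mb on.

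Pericentromeric regions were mostly higher in mat *nrpd1+/-*. Of the 236, 75 were lower (31.8%, interval 25.9% to 38.1%), and of the 422 in the arms 205 were lower (48.6%, interval 43.7% to 53.5%). Place and annotation went together here, since 56 of the 236 pericentromeric regions (23.7%) overlapped a protein-coding gene against 273 of the 422 in the arms (64.7%). Outside genes, 29.4% of 180 pericentromeric and 40.3% of 149 arm regions were lower. Inside genes, it was 39.3% of 56 and 53.1% of 273. Among the other regions, 39.4% in pericentromeres and 45.5% in the arms were lower, and outside genes the order was the opposite one, 35.8% of 95 and 32.3% of 130. No difference between these shares was tested. From 1 to 2 Mb from the centre, regions higher in mat *nrpd1+/-* reached 10.4 per Mb and regions lower 4.07 per Mb, and beyond 7 Mb they numbered 2.26 and 2.46 per Mb. Among single 1-Mb bins with at least 0.5 Mb tested, the densest was on chromosome 4 from 6 to 7 Mb, with 23 regions, 14 of them lower and 9 higher.

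**Figure D4:**
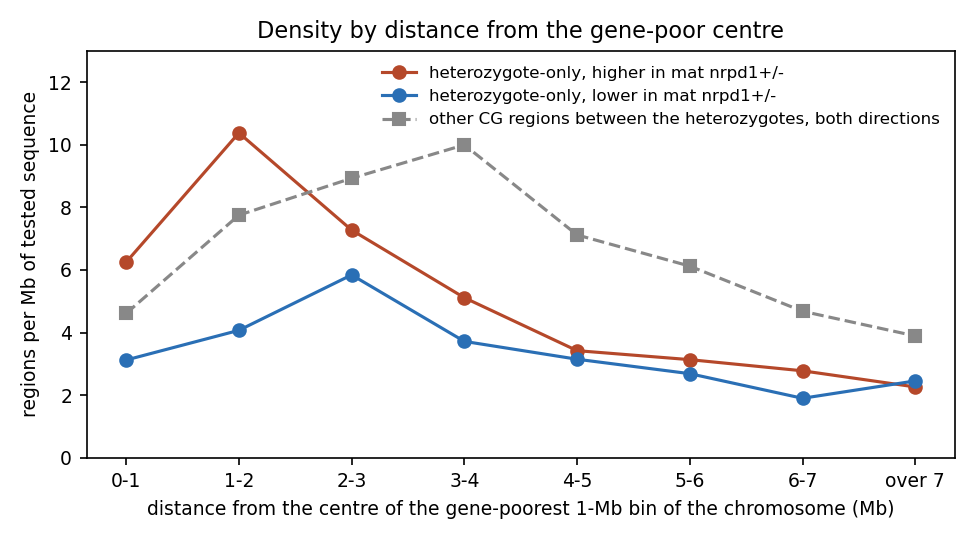
Regions per Mb of tested sequence (vertical axis) by distance from the middle of the gene-poorest 1-Mb bin of the chromosome in Mb (horizontal axis), all 5 chromosomes together. Heterozygote-only regions higher in mat *nrpd1+/-* (red) peak at 10.4 per Mb from 1 to 2 Mb, those lower (blue) stay at or below 5.84 per Mb, and the other CG regions of both directions (grey, dashed) peak at 9.99 per Mb from 3 to 4 Mb.

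With 96.97 points, the region on chromosome 5 from 15918101 to 15918500 had the largest gain in mat *nrpd1+/-*. It lay 740 bp downstream of AT5G39770, which encodes a restriction endonuclease type II-like protein. The region on chromosome 1 from 11155101 to 11155600 gained 81.3 points, and the start of the formyl transferase gene AT1G31220 followed after 1097 bp. These are the first sequences printed above, and neither lies in a gene. At the first, CHH was -13.2 points in pat *nrpd1+/-* relative to WT. At the second, CHH was 11.4 points higher in mat *nrpd1+/-* than in pat *nrpd1+/-*. A gain of 70.6 points on chromosome 5, from 18142101 to 18142700, covered the pseudogene AT5G44925 in part and 59 bp of *ARAD2* (AT5G44930), which encodes an exostosin family protein. It held 25 CG in 600 bp. CHH there was 12.3 points higher in mat *nrpd1+/-* than in pat *nrpd1+/-*, and -17.4 points in pat *nrpd1+/-* relative to WT.

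Another 6 of the 10 largest gains ranged from 60.7 to 70.5 points. None of these 6 overlapped a CHH region of the comparisons between genotypes. One lay inside AT5G59480, with 224 of its 500 bp in coding sequence (a haloacid dehalogenase family gene), and gained 70.5 points over 3 CG. Others lay 244 bp upstream of AT3G51020 (67.9 points) and 3304 bp downstream of the cytochrome P450 gene *CYP71B38* (65.4 points). Another overlapped the pseudogene AT4G26360 (61.9 points). The last 2 lay in the non-coding gene AT1G35545 and 205 bp upstream of AT1G35550, annotated with the C-terminal domain of elongation factor Tu (60.9 points), and 90 bp downstream of AT2G05250, a gene of the DNAJ chaperone family (60.7 points). The gains near *CYP71B38* and AT2G05250 overlapped a CHH region that differed between the replicates of mat *nrpd1+/-*, and the one near AT2G05250 also one that differed between the WT replicates. Of the 10 gains, 8 lay outside protein-coding genes, as did 216 of all 378 regions higher in mat *nrpd1+/-*.

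The region with the largest loss, -75.5 points, spanned chromosome 5 from 20492501 to 20492800, inside AT5G50340, which encodes a protein like the bacterial DNA repair protein RadA. The region held 3 CG, with 54 of its 300 bp in coding sequence and the rest in introns. The second, -69.0 points on chromosome 5 from 13501601 to 13501900, lay in the pseudogene AT5G35250. It overlapped CHH regions that differed between replicates of WT and of pat *nrpd1+/-*. The third, -59.8 points on chromosome 5 from 5921501 to 5921800, lay in *DAR4* (AT5G17890), a gene of the DA1-related family whose product combines a resistance protein with a LIM domain. A second region of *DAR4*, from 5918301, was 30.3 points higher.

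Losses after these were between -57.6 and -51.6 points. The region at -57.6 points, 733 bp upstream of the mitogen-activated protein kinase gene *MPK16*, stood apart in sequence, with 31 CG in 300 bp and a GC content of 50.3% against a median of 35.2% over all heterozygote-only regions. One of -56.1 points lay wholly in an intron of AT4G11340, a resistance gene of the TIR-NBS-LRR class, and one of -53.5 points lay 1201 bp downstream of *BIM1*, a basic helix-loop-helix gene of brassinosteroid signalling. One of -51.6 points overlapped 88 bp of coding sequence of the F-box gene AT3G55670 and overlapped a CHH region that differed between the mat *nrpd1+/-* replicates. The others, at -54.5, -52.9 and -52.1 points, lay outside genes. Of the 10 largest losses, 7 were on chromosome 5 and 4 overlapped a protein-coding gene. Among all 280 regions lower in mat *nrpd1+/-*, 79 were on chromosome 5 and 167 overlapped a protein-coding gene.

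CHH methylation, which the rule did not use, seldom differed at the same places. A CHH region between the heterozygotes overlapped 23 of the 658 regions (3.50%, interval 2.23% to 5.20%), where 1.38% of the tested windows and 4.21% of the other 523 regions (interval 2.65% to 6.30%) did so. The share in heterozygote-only regions was thus within the interval of the other regions. Not all regions could show a CHH difference, since 592 of the 658 and 474 of the other 523 lay wholly in sequence kept for this CHH comparison. Of these, 22 (3.72%) and 21 (4.43%) overlapped a CHH region. Regions against WT in CHH overlapped 25 (3.80%) for mat *nrpd1+/-* and 18 (2.74%) for pat *nrpd1+/-*, against 1.4% and 1.14% of the windows. A window is shorter than many regions, and the CHH comparisons have the same libraries as the CG comparisons. At least 1 of the 3 CHH lists held an overlapping region at 51 of the 658 regions (7.75%) and at 39 of the other 523 (7.46%).

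At the 23 regions, CG and CHH went in the same direction in 16 and in opposite directions in 7. Of the 15 that were higher in CG in mat *nrpd1+/-*, 11 were higher and 4 lower in CHH, and of the 8 that were lower in CG, 5 were lower and 3 higher in CHH. The largest CHH difference, 40.7 points, lay on chromosome 4 from 8959401 to 8959900, where CG differed by 59.1 points. The region is intergenic, and the nearest gene is AT4G15730, a gene with a CW-type zinc finger, and its middle is the last sequence printed above. The CHH difference there between pat *nrpd1+/-* and WT was -25 points. No CG region against WT was listed there, but CG differences from WT below 30 points are not in the lists. With 59.1 points between the heterozygotes, a WT level within 30 points of both, at the same cytosines, had to lie near that limit for each. The next 2 went in opposite directions. On chromosome 5 from 13436301, 876 bp downstream of the extensin gene *EXT13*, CG was -30.8 points and CHH 26.6 points in mat *nrpd1+/-* relative to pat *nrpd1+/-*. On chromosome 1 from 14012101, 1278 bp upstream of AT1G36950, CG was -35.6 points and CHH 25.6 points, and CHH in mat *nrpd1+/-* was 60.2 points above WT. At the remaining regions of the 5 with the largest CHH difference, both contexts were higher in mat *nrpd1+/-*. On chromosome 3 from 14721601, 349 bp upstream of the pentatricopeptide repeat gene AT3G42630, CG differed by 30.4 and CHH by 25.3 points, and on chromosome 5 from 12449301, in intergenic sequence, CG differed by 47.2 and CHH by 20.5 points.

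The spread between replicates can be seen only through the lists of regions that differed between the replicates of a genotype. In CHH, such regions overlapped 31 heterozygote-only regions (4.71%) for WT, 38 (5.78%) for mat *nrpd1+/-* and 35 (5.32%) for pat *nrpd1+/-*, against 2.82%, 3.97% and 3.14% of the tested windows and 3.63%, 5.74% and 5.93% of the other regions. In CG, the lists held 901 such regions for mat *nrpd1+/-*, 228 for pat *nrpd1+/-* and 131 for WT, so that the genotypes were not alike in this. The authors had removed those of the compared genotypes, with 1 overlap left, so the surroundings were examined. Within 1 kb lay a CG region that differed between replicates of mat *nrpd1+/-* at 11 regions (1.67%, windows 1.27%), of WT at 6 (0.912%, windows 0.300%) and of pat *nrpd1+/-* at 5 (0.760%, windows 0.388%). The maternal fraction of reads, near the expected balance by the authors' filter, had medians at these regions of 0.630 for mat *nrpd1+/-*, 0.636 for pat *nrpd1+/-* and 0.633 for WT.

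Genes of the pathway were looked up in lists of 45 genes, and 0 of them had a heterozygote-only region within 1 kb. The lists were 16 genes of RNA-directed DNA methylation, 8 of methylation upkeep, 4 DNA demethylase genes, 4 Polycomb genes of the endosperm and 13 imprinted or endosperm genes. Over all 20773 protein-coding genes with at least 50% of their length tested, 542 (2.61%) had such a region within 1 kb. Only 31 of the 45 were tested over at least 50% of their length. *NRPD1*, *ROS1*, *DME* and *MEA*, which encodes a Polycomb subunit of the endosperm, were among those not tested, and their CG methylation cannot be compared here. *DCL3*, which cuts the precursors of 24-nt small RNAs, had 1 of the other 523 regions within 1 kb. Just outside the 1-kb limit, a heterozygote-only region on chromosome 3 from 14761801 lay 1171 bp upstream of AT3G42670 (*CLSY1*), a listed gene of RNA-directed DNA methylation. There, CG was 36.2 points and CHH 14.0 points higher in mat *nrpd1+/-* than in pat *nrpd1+/-*.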

How the data were processed

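Endosperm of WT, mat *nrpd1+/-* and pat *nrpd1+/-* was bisulfite-sequenced in 2 replicates each. The authors trimmed reads with Trim Galore, aligned them to TAIR10 with Bismark (versions are not given in the sources used here), pooled replicates, and compared windows of 300 bp at 100-bp steps with at least 3 shared cytosines and 6 reads per cytosine. Windows past 30 points (CG) or 10 points (CHH) were merged. Kept were regions with 67% ± 15% maternal reads that did not differ between replicates. Read depth per sample is unknown from the 15 deposited lists. The deposited values are differences in percentage points and, for maternal reads, a fraction computed by the authors. In 1 CHH list (pat *nrpd1+/-* with WT) the difference stands 1 column later than the header says.

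Overlap (1 bp) was computed with Python 3.11.15 and pandas 2.3.3 and tested on simulated intervals. Tested windows lie wholly in the maternal-read lists of both heterozygotes and overlap no CG region variable there. Genes are from RefSeq TAIR10.1, whose chromosome 5 has the length of 26975502 bp at which the deposited lists end. No test was made, since no list holds values per replicate. The regions and gene lists were chosen with earlier results of these data known. Named are the 10 largest gains (1 of them is not reported here) and losses, the 5 regions with the largest CHH difference and listed genes. Alternatives changed the overlap, the threshold, the window number, the sequence and the pericentromere.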

Additional observations from a re-analysis of the deposited data

How the results depend on the processing

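No paired analysis was possible because the lists hold no values per replicate, and no replicate could be left out for the same reason. Overlap with transposable elements was not run, since the reference does not annotate them. The number of regions has no interval and was judged by a fold limit, the other values by the interval of the reported value. Of 32 alternative values, 22 stayed within these bounds. A difference of at least 40 points left 183 regions with a median absolute difference of 46 points, 33.3% lower in mat *nrpd1+/-* and 33.9% in protein-coding genes. Without regions of a single window, 193 remained, with a median of 36.8 points, 37.3% in genes and 6.74% with a CHH region between the heterozygotes. That share was 5.62% when a CHH region within 300 bp counted and 1.22% when CHH had to differ by at least 15 points. A wider margin to regions against WT, a coverage rule of 50%, and sequence kept in all 3 genotypes gave 647, 664 and 651 regions. They moved none of the other values computed under them out of its interval. With pericentromeres of 2 or 3 Mb to each side, the densities stayed within theirs (12.1 and 12.5 per Mb, arms 6.49 and 5.57 per Mb), while the share of regions counted as pericentromeric went with the width, 26.3% and 44.4%.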

Other observations

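Some genes held more than 1 heterozygote-only CG region. Of 327 protein-coding genes overlapped, 16 had 2 or more, and in 10 of these all regions went in one direction. *CLC-D* (AT5G26240), which encodes a chloride channel family member, had 3, with 55.0 points in a region that overlapped the first 76 bp of the gene, 41.1 points in the body and -31.9 points towards the 3′ end. The first of them overlapped a CHH region 28.4 points above WT in mat *nrpd1+/-* and one that differed between the pat *nrpd1+/-* replicates. In the body of *TRN1* (AT5G55540), the *TORNADO1* gene of leaf patterning, 2 regions were 31.9 and 33.0 points higher in mat *nrpd1+/-*. Both regions in *S1P* (AT5G19660), the site-1 protease gene, were lower, by -36.0 and -32.5 points, as were both in *CPK4* (AT4G09570), a calcium-dependent protein kinase gene, by -34.6 and -31.1 points (the latter also overlapped AT4G09580), and both in the proteasome subunit gene *RPN1B* (AT4G28470), by -32.8 and -33.1 points. The regions in *RPN1B* held 2 CG each, and those in *S1P* 1 and 5. These genes were chosen after their values were seen. Among neighbouring heterozygote-only regions, 13 of 17 pairs within 1 kb of each other had the same direction, as had 19 of 51 pairs 1 to 10 kb apart and 319 of 585 pairs (54.5%) farther apart. Among the other regions it was 6 of 7, 27 of 47 and 226 of 464 pairs.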
